A study of Xenopus laevis with 12 samples.

Results

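The comparison described here asks whether Xenopus animal caps answered activin and retinoic acid in the same way with and without lhx1-AS, an antisense oligonucleotide directed against the RNA of lhx1. For each probe set, the AcRA response of uninjected caps (AcRA minus C) was subtracted from the AcRA response of injected caps (lhx1-AS/AcRA minus lhx1-AS), on log2 of the signal. All 12 of the 12 arrays of the series entered this difference of responses, and it was taken within each of 3 experiments and as a contrast of the 4 group means with the experiment as a block. A positive difference means that the response was more positive in injected caps. The same number is also the antisense effect in induced caps (lhx1-AS/AcRA minus AcRA) less the antisense effect in uninduced caps (lhx1-AS minus C), so it can rest on the induced pair of groups, on the uninduced pair, or on both.

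The explants were animal caps, the ectoderm of the blastula roof, of Xenopus laevis embryos. The 4 groups of 3 arrays were caps of embryos injected with 800 pg lhx1-AS and treated with 10 ng/ml activin and 0.0001 M retinoic acid (lhx1-AS/AcRA), injected caps left untreated (lhx1-AS), uninjected caps given the same treatment (AcRA) and uninjected, untreated caps (C). Experiments I, II and III each gave 1 array to every group, and each RNA came from 12 pooled caps cut at stage 9. Per the labels, all caps were cultured for 24 h at 14 C, until siblings reached stage 12.5. The paper gives a later stage for this harvest. Caps injected with an unrelated oligonucleotide were not among the groups, so what lhx1-AS did through lhx1 and what injection did otherwise cannot be told apart.

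Activin acts through the Smad pathway that nodal ligands also use and turns cap ectoderm into mesoderm and endoderm, and the strongest signals activate genes of the organizer, which patterns the dorsal side of the gastrula. Retinoic acid is a posteriorizing signal that activates Hox genes, and the combination with activin is used to obtain pronephric kidney tissue from caps. Caps left alone become epidermis, a tissue of keratin-rich surface cells, mucus-secreting goblet cells, ionocytes and multiciliated cells. lhx1 encodes a LIM homeodomain transcription factor that is expressed in the organizer and later in the kidney field.

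The array read 15503 probe sets apart from its controls, as signals on a linear scale with a trimmed mean of 500.1 on every array. The median signal was 108.8 to 122.9 in caps labelled lhx1-AS/AcRA, 107.5 to 123.9 on the lhx1-AS arrays, 130.4 to 139.8 on the AcRA arrays and 125.7 to 150.9 on the C arrays, so it was lower on every injected array than on every uninjected one. Scaling all arrays to 1 median instead left the counts below within a factor of 1.5. Signals of a few units have no reliable order and no detection calls were used, so a log2 value that rests on them gives a direction but not a firm size.

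By the 1 probe set that read it, the targeted RNA was not lower in caps labelled lhx1-AS/AcRA than in AcRA caps. lhx1 had signals, by experiment, of 1144, 991 and 1614 in caps labelled lhx1-AS/AcRA and of 1.55, 42.6 and 3.2 in lhx1-AS caps. In AcRA caps it had 316, 823 and 779, and in C caps 19.8, 2.19 and 2.6. Its response was 7.68 in injected and 6.93 in uninjected caps, and the difference of 0.76 (standard error 1.49, 95% interval -2.47 to 3.98, limma adjusted p = 0.919) changed sign between experiments. Signals were low in both untreated groups, so only the induced caps could show a fall, and the antisense effect there was 1.06 (standard error 1.06). Where the probe set lies relative to the oligonucleotide is not given, so depletion could not be checked on these arrays. The groups are therefore called by their labels, and every direction drawn from the arrays labelled lhx1-AS/AcRA rests on that label.

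The response differed between injected and uninjected caps for 239 probe sets (1.54% of those tested) at a limma adjusted p under 0.05. The difference was higher for 104 of them (0.671%) and lower for 135 (0.871%). At an unadjusted p under 0.05 there were 779 higher and 921 lower, and the median difference over all probe sets was -0.03. The called differences were large, with a smallest size of 1.14 and medians of 2.49 among the higher and -2.75 among the lower, beside a median standard error of 0.55 over all probe sets. A single symbol was attached to 147 of the 239, for 56 genes with a higher and 73 with a lower difference.

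The call depended on how the spread was estimated. When each probe set's variance was moderated toward 1 common value in place of a trend with mean signal, 6 probe sets were higher and 5 lower. Without the experiment as a block 26 were higher and 42 lower. Leaving out a whole experiment left 22 higher and 17 lower without experiment I, 50 and 104 without experiment II, and 22 and 32 without experiment III.

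**Figure D1:**
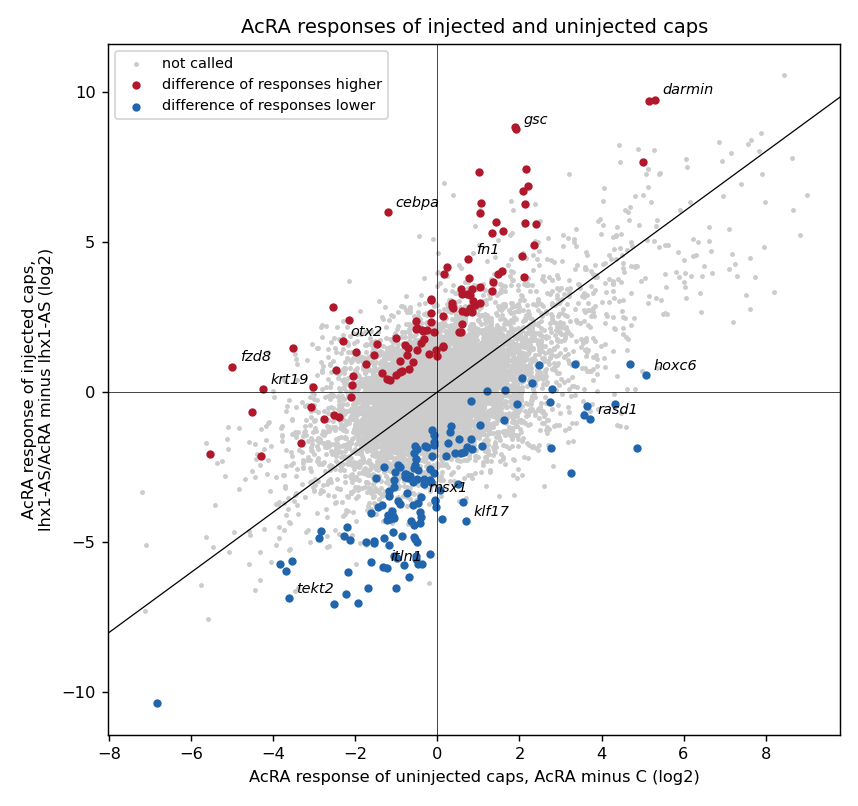
Each point is a probe set, with the AcRA response of uninjected caps on the horizontal axis and that of injected caps on the vertical axis, both as log2 differences of group means. The 104 red and 135 blue probe sets lie above and below the line of equal responses, the blue ones mostly where both responses were negative and the injected one more so.

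The higher and the lower probe sets had different shapes. Of the 135 lower ones, 97 had negative responses in both kinds of caps, more negative in injected ones, and 29 had a negative response in injected and a positive one in uninjected caps. The remaining 9 had positive responses in both. Their median response was -3.16 in injected and -0.53 in uninjected caps. Of the 104 higher ones, 50 had positive responses in both kinds of caps, 45 had a positive response in injected and a negative one in uninjected caps, and 9 had negative responses in both. Their median response was 2.35 in injected and -0.05 in uninjected caps. These classes use the same arrays as the calls and carry no test.

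The lower differences rested mainly on the induced caps. The antisense effect was larger in induced than in uninduced caps for 117 of the 135, with medians of -2.80 and -0.01. For 99 of the 135, all 3 arrays labelled lhx1-AS/AcRA lay below all 9 others, a pattern that 4.54% of all probe sets showed. The higher differences rested on both pairs of groups. The antisense effect was larger in induced caps for 63 and larger in uninduced caps for 41, with medians of 1.39 and -0.90. All 3 arrays labelled lhx1-AS/AcRA lay above all 9 others for 48 (3.26% of all probe sets), and all 3 lhx1-AS arrays lay below all 9 others for 34 (1.83%).

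**Figure D2:**
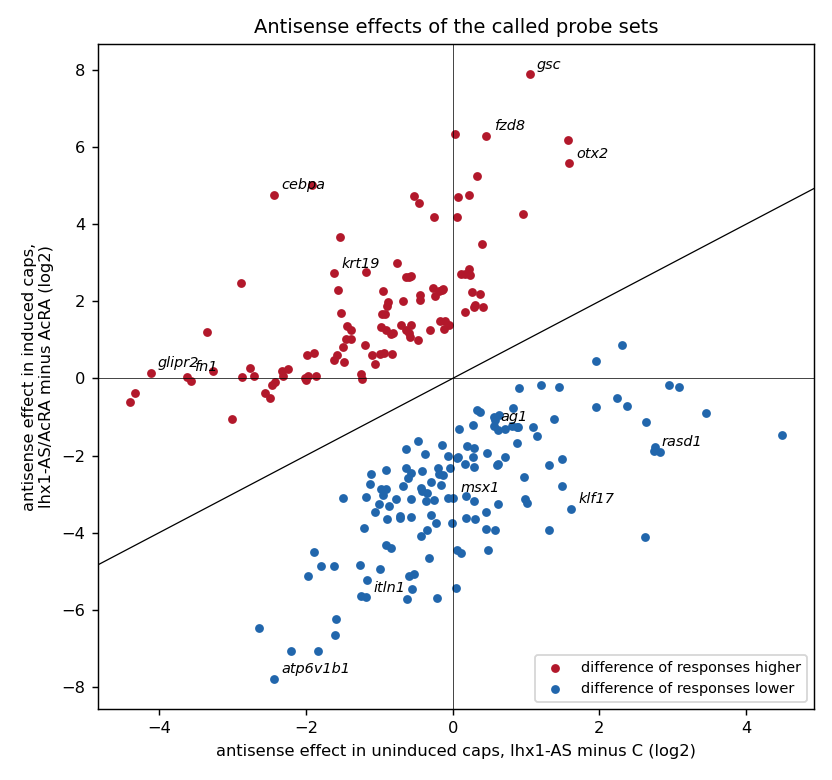
Each of the 239 called probe sets is placed by its antisense effect in uninduced caps (horizontal axis, lhx1-AS minus C) and in induced caps (vertical axis, lhx1-AS/AcRA minus AcRA), both in log2. Genes such as gsc, otx2, itln1 and msx1 are displaced mainly along the vertical axis, and fn1 and glipr2 along the horizontal axis near an induced effect of 0.

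Several genes of the organizer had more positive responses in injected caps. In this and all other gene lists, a gene was read from its brightest probe set unless stated. Each list count is to be read beside the 1.54% of all probe sets that were called in either direction. Of 18 measured genes of the organizer and axial mesoderm list, 3 were called higher, against 0.671% of all probe sets, and 0 lower, with 8 higher and 0 lower at an unadjusted p under 0.05. Their median difference was 1.24, against -0.03 over all probe sets, and 14 of the 18 were above 0. That median was 3.47 with the dimmest 40% of probe sets left out, 2.64 over every probe set of these genes and 0.65 with 64 added to the signals. The summed signal of the list was 15715 to 27663 in caps labelled lhx1-AS/AcRA, 1185 to 1513 in lhx1-AS, 1585 to 2639 in AcRA and 425 to 894 in C caps. The called genes were gsc, the homeobox gene goosecoid, admp, a BMP-family ligand of the organizer, and otx2, a homeobox gene of head and cement gland. Without the C array of experiment II 5 members were called, without any 1 of 8 other arrays only 1, and without the array labelled lhx1-AS/AcRA of experiment III 0. The count was 1 without the block and 0 without the variance trend, without experiment I or without experiment III.

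The gsc signal was 1823, 4824 and 7276 in caps labelled lhx1-AS/AcRA and 5.56, 40.8 and 3.51 in lhx1-AS caps. In AcRA caps it was 27.8, 38.6 and 4.49, and in C caps 1.32, 2.99 and 22.8. Only the injected and induced arrays thus carried a clear signal, and the other 9 lay among the lowest values of the array. The difference was 6.84 (standard error 1.55, adjusted p = 0.0472, positive in 3 of 3 experiments). Of the 12 fits without 1 array, only those without C array II, AcRA array I or lhx1-AS array II kept that call. A dimmer probe set of gsc.L was also called (6.31, adjusted p = 0.0171), and the probe set of gsc.S was not (3.43, adjusted p = 0.475).

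otx2 differed from gsc in that its uninjected response was negative. Its signals were 2386, 1861 and 3788 in caps labelled lhx1-AS/AcRA, against 777, 660.0 and 989.6 in lhx1-AS caps. They were 46.0, 141 and 24.0 in AcRA caps, against 456, 174 and 233 in C caps. The response was 1.68 in injected and -2.30 in uninjected caps, and the difference was 3.98 (standard error 0.76, adjusted p = 0.0203). The call was lost without C array I, AcRA array I, lhx1-AS array II or the array labelled lhx1-AS/AcRA of experiment III, and further probe sets of otx2.L and otx2.S were dim and not called. The admp difference was 4.93 (standard error 1.04, adjusted p = 0.0322), from 1324 to 2357 in caps labelled lhx1-AS/AcRA and at most 88.6 on the other 9, and it was lost in 9 of 12 fits without 1 array. A second admp.S probe set was not called (6.79, standard error 1.62, adjusted p = 0.0595).

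Of the organizer genes that did not pass, cer1, encoding the secreted antagonist Cerberus, had the highest mean signal. It had 2453, 4944 and 5180 in caps labelled lhx1-AS/AcRA and 235, 841 and 594 in AcRA caps, over 23.3 to 53.6 in lhx1-AS and 2.89 to 38.1 in C caps. The difference was 1.69 (standard error 1.05, adjusted p = 0.633) and was negative in experiment II, but passed when 16 or 64 was added to the signals or without C array II. foxa4, frzb and hhex had differences of 4.05, 3.47 and 4.58 that did not pass (adjusted p = 0.0921, 0.0927 and 0.253). Of 25 nodal and activin signalling genes 1 was called higher, lefty, and 1 lower, ski, which is described below. The median difference of that list was 0.26. lefty, a secreted nodal antagonist, had 512, 1157 and 1396 in caps labelled lhx1-AS/AcRA, against 1.59, 1.91 and 2.90 in lhx1-AS caps. It had 14.3, 74.9 and 22.4 in AcRA caps, against 18.2, 3.93 and 6.56 in C caps. The difference of 6.94 (standard error 1.13, adjusted p = 0.00815) was called in every fit without 1 array, but not without the variance trend, experiment I or experiment III. The copy lefty.S was not called (4.59, adjusted p = 0.195).

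**Figure D3:**
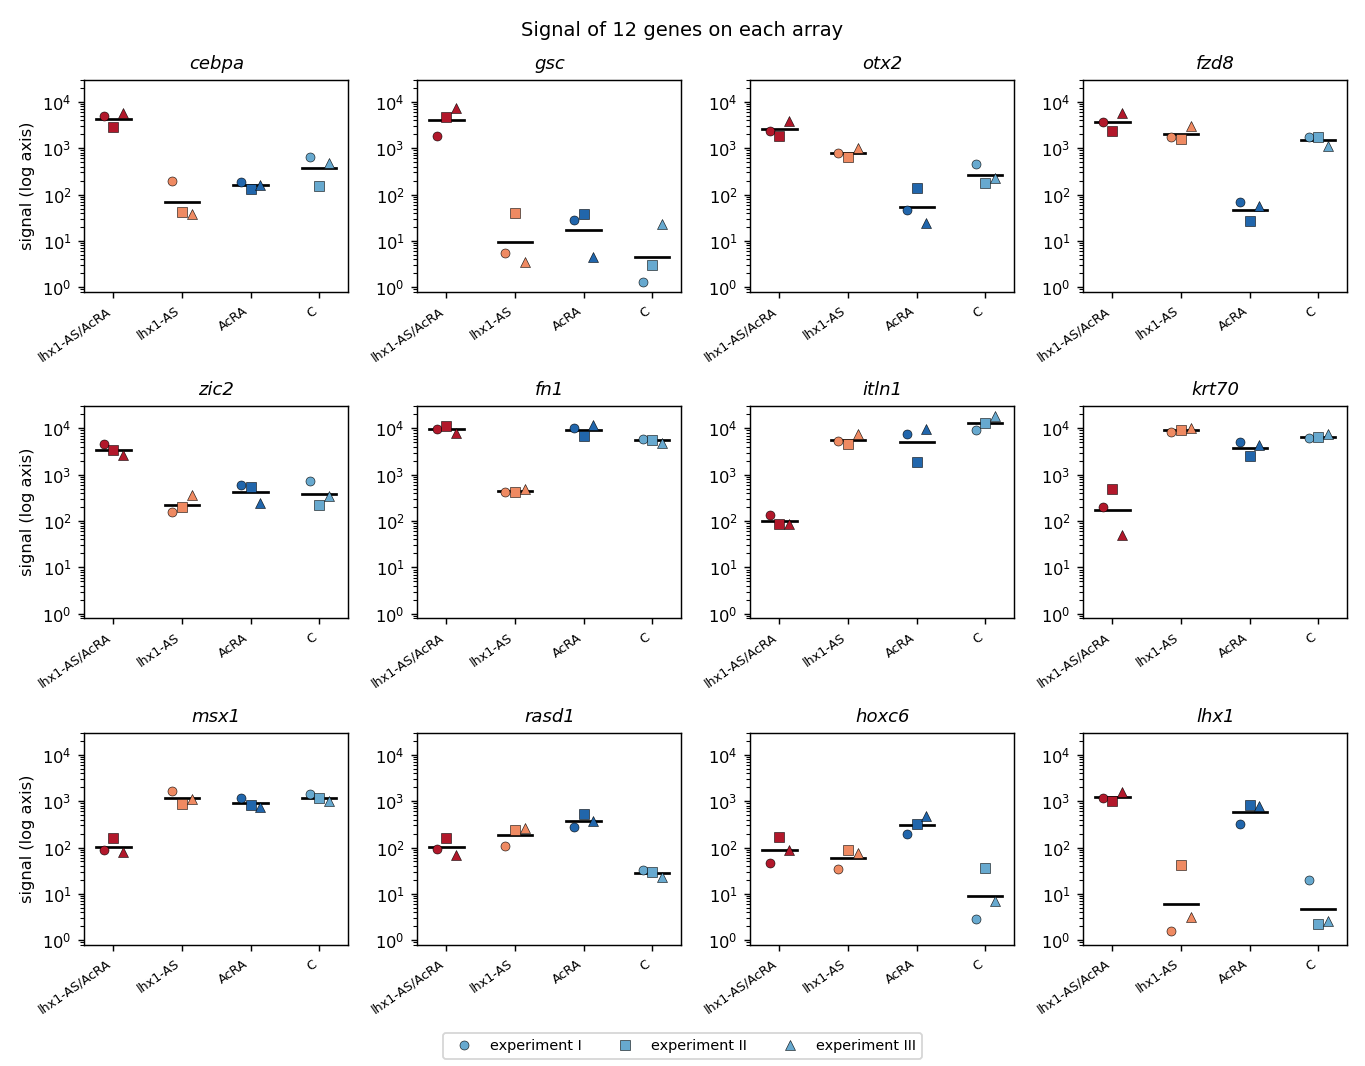
Signals of 12 genes on each of the 12 arrays, on a log axis, with 1 panel per gene, the 4 groups along the horizontal axis and a marker for each experiment. Horizontal bars are geometric means of 3 arrays. The 3 lhx1-AS/AcRA arrays stand above the other 9 for cebpa, gsc, otx2 and zic2 and below them for itln1, krt70 and msx1, and fn1 is low only in lhx1-AS caps.

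Endoderm genes also had mostly positive differences. Of 16 measured members, 3 were called higher, against 0.671% of all probe sets, and 0 lower (7 and 0 at an unadjusted p under 0.05), 15 of 16 were above 0, and the median difference was 2.07, with medians by experiment of 1.92, 2.09 and 1.93. Their summed signal was 20653 to 27765 in caps labelled lhx1-AS/AcRA, 1743 to 4299 in lhx1-AS, 7994 to 12356 in AcRA and 3375 to 5022 in C caps. The called members were gata4 and gata6, zinc finger factors of endoderm and heart, and darmin, a Xenopus endoderm marker that encodes a peptidase-like protein. Fits without 1 array called 0 to 3 members, with 0 without AcRA array I, lhx1-AS array II or the array labelled lhx1-AS/AcRA of experiment I. When 64 was added to the signals 9 members passed and the median was 1.28. Without the block, without the variance trend or without experiment I 0 passed.

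darmin had a positive response in both kinds of caps and a larger one in injected caps. Its signals were 7816, 5580 and 7073 in caps labelled lhx1-AS/AcRA, against 2.83, 5.40 and 33.2 in lhx1-AS caps, and 217, 596 and 400.3 in AcRA caps, against 13.2, 3.76 and 17.1 in C caps. The difference was 4.43 (standard error 0.95, adjusted p = 0.0356). gata4 had 1322, 883 and 2272 in caps labelled lhx1-AS/AcRA and 26.3, 8.38 and 2.37 in lhx1-AS caps, while AcRA caps had 33.1, 70.3 and 60.3 and C caps 5.06, 15.0 and 20.8. Its difference was 5.27 (standard error 1.16, adjusted p = 0.0417). For gata6 the difference was 1.70 (standard error 0.36, adjusted p = 0.0323), with mean signals of 5019 ± 491 in caps labelled lhx1-AS/AcRA, 361 ± 73.8 in lhx1-AS, 3409 ± 1154 in AcRA and 778 ± 193 in C caps (SD, n = 3 each). The calls of gata4, darmin and gata6 were lost in 9, 8 and 10 of 12 fits without 1 array. The bright a2m, a protease inhibitor gene, had a difference of 0.84 that did not pass (adjusted p = 0.678), and dim probe sets of gata4.S and gata6.S had 0.72 and -1.71 (adjusted p = 0.926 and 0.567).

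The largest difference that was stable to every alternative tried was that of cebpa, which encodes a bZIP transcription factor of liver, fat and myeloid cells. Its signals were 4967, 2821 and 5631 in caps labelled lhx1-AS/AcRA and 195, 42.8 and 37.4 in lhx1-AS caps. In AcRA caps they were 186, 130.2 and 164, and in C caps 655, 157 and 475. The injected and induced caps did not overlap with any other group. The response was 5.98 in injected and -1.21 in uninjected caps, with a difference of 7.19 (standard error 0.59, 95% interval 5.91 to 8.46, adjusted p = 7.23e-05). The copy on the other subgenome, cebpa.S, was also called (4.63, adjusted p = 0.00582), but with positive responses in both kinds of caps, 6.85 in injected and 2.22 in uninjected ones. Its antisense effect in uninduced caps was 0.08, where that of cebpa.L was -2.43, while those in induced caps were 4.71 and 4.76.

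fzd8, a Wnt receptor gene, had a negative response in uninjected caps that was absent in injected ones. It had 3682, 2389 and 5707 in caps labelled lhx1-AS/AcRA, against 1786, 1598 and 3081 in lhx1-AS caps, and 68.4, 26.4 and 57.5 in AcRA caps, against 1734, 1718 and 1134 in C caps. The AcRA caps thus lay below every other array. The response was 0.84 in injected and -5.0 in uninjected caps, and the difference of 5.83 (standard error 0.46, 95% interval 4.84 to 6.83, adjusted p = 7.07e-05) passed under every alternative. A further probe set annotated to fzd8.S was level in all groups (means of 444 to 516, difference 0.18, adjusted p = 0.89), so the probe sets of this gene disagree, and the dim fzd8.L had 3.24 (adjusted p = 0.402). Of 51 Wnt pathway genes 1 was called higher, fzd8, and 1 lower, tcf7, which is described below. At an unadjusted p under 0.05 there were 5 higher and 9 lower, and the median difference was 0.13.

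krt19 and dmrta2 also had negative responses in uninjected caps, and by the probe sets first given here no negative ones in injected caps. krt19, a keratin gene, had 3773, 766 and 1190 in caps labelled lhx1-AS/AcRA, against 1863, 636 and 2358 in lhx1-AS caps, and 165, 152 and 464 in AcRA caps, against 3770, 3091 and 6888 in C caps. Its difference was 4.35 (standard error 0.62, adjusted p = 0.00458), and krt19.S was called as well (2.19, adjusted p = 0.0278), with negative responses in both kinds of caps, -2.13 in injected and -4.31 in uninjected ones. dmrta2, encoding a DM-domain factor, had a difference of 4.54 (standard error 0.83, adjusted p = 0.0171), lost without C array I, with 169.9 to 649.9 in caps labelled lhx1-AS/AcRA, 50.5 to 101 in lhx1-AS, 6.31 to 51.0 in AcRA and 59.8 to 77.9 in C caps. Of 31 neural genes only zic2, a zinc finger gene of the neural plate, was called. It had 4480, 3431 and 2614 in caps labelled lhx1-AS/AcRA, where the other 9 arrays had 158 to 723, and its difference was 3.76 (standard error 0.60, adjusted p = 0.00741). A second zic2.S probe set and that of zic2.L were not called (3.58 and 1.48, adjusted p = 0.517 and 0.509). The brighter neural gene sox11 had a difference of -1.89 that did not pass (adjusted p = 0.0558). fgfr2, an FGF receptor gene, and atp1b1, a sodium pump subunit gene, had smaller called differences of 1.56 and 1.47 (adjusted p = 0.0282 and 0.0189), each with a positive mean response in injected and a negative one in uninjected caps. They were lost in 8 and 4 of 12 fits without 1 array. A second fgfr2.L probe set was not called (1.17, adjusted p = 0.418). Of 21 FGF signalling genes fgfr2 was the 1 called, and the median difference was 0.02.

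A further set of positive differences came from uninduced caps. fn1, encoding fibronectin, a matrix protein on which mesoderm cells migrate, had 9629, 11291 and 8013 in caps labelled lhx1-AS/AcRA and 433, 418 and 485 in lhx1-AS caps. In AcRA caps it had 10013, 6691 and 11720, and in C caps 5816, 5727 and 4923. Induced caps thus overlapped with and without lhx1-AS, while the lhx1-AS caps lay below all 9 other arrays. The antisense effect was 0.05 in induced and -3.62 in uninduced caps (standard error 0.21 each), and the difference was 3.67 (standard error 0.29, 95% interval 3.04 to 4.31, adjusted p = 7.07e-05). All 4 probe sets of fn1.S were called, at 3.49 to 3.95, and the call held under every alternative. No other of the 29 extracellular matrix genes was called, and their median difference was 0.29. The brightest of those, sparc, which encodes a collagen-binding glycoprotein, had -1.92 (adjusted p = 0.318).

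glipr2, a gene of the CAP protein family, had the same shape, with 1453, 1307 and 1749 in caps labelled lhx1-AS/AcRA, 71.8, 4.18 and 83.3 in lhx1-AS caps, 1078, 1335 and 1710 in AcRA caps and 679.8, 204 and 935 in C caps. Its difference was 4.26 (standard error 0.92, adjusted p = 0.0366), lost in 7 of 12 fits without 1 array. Other called genes, picked after their values were seen, were alike. For dhcr7, encoding a cholesterol synthesis enzyme, the antisense effect was 0.02 in induced and -2.01 in uninduced caps, and for dynll1, a dynein light chain gene, -0.17 and -2.46. For pfkfb1, encoding a regulator of glycolysis, they were -0.50 and -2.49, and for slc25a1, the mitochondrial citrate carrier gene, 0.42 and -1.47.

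The epidermis list held more called members than any other of the 24 lists. Of its 33 measured genes, 13 were called lower, against 0.871% of all probe sets, 1 was called higher (krt19, above), and 19 were not called. The median difference was -1.55, with -1.89, -1.25 and -1.70 by experiment, and 29 of 33 members were below 0. The median member response was -2.67 in injected and -0.53 in uninjected caps. The number called lower was 9 to 14 in the fits without 1 array, 8 without the block, 4, 10 and 2 without experiments I, II and III, and 0 without the variance trend. The summed signal of the list was 35843 to 61089 in caps labelled lhx1-AS/AcRA, 132859 to 140434 in lhx1-AS caps, 97887 to 112256 in AcRA caps and 137079 to 149423 in C caps, so the label of ectodermal caps was borne by bright epidermal RNA in the untreated groups. In pooled caps, fewer cells of a type and less RNA per cell cannot be told apart, and the part of such a shift in single results was not tested.

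Genes of the secretory and ion-transporting cells of the larval skin were among these, namely itln1, atp6v1b1 and fut6. itln1, encoding the goblet cell lectin intelectin, had 134, 88.5 and 88.3 in caps labelled lhx1-AS/AcRA, against 5366, 4554 and 7692 in lhx1-AS caps. It had 7519, 1889 and 9681 in AcRA caps, against 9013, 12909 and 18613 in C caps. The RNA was thus low only where injection and AcRA were combined, and the response of -5.82 in injected and -1.33 in uninjected caps gave a difference of -4.49 (standard error 0.55, 95% interval -5.69 to -3.30, adjusted p = 0.00193). otogl2, encoding an otogelin-like secreted glycoprotein, was not among the 13 but had called probe sets. The one with the largest called difference had 139.5, 493 and 25.5 in caps labelled lhx1-AS/AcRA and 4221 to 9906 on the other 9. Its difference was -5.48 (standard error 0.89, adjusted p = 0.00815), and a further probe set gave -4.50 (adjusted p = 0.0223). The brightest probe set annotated to otogl2.L did not follow, with means of 6886, 9533, 7199 and 6929 on the lhx1-AS/AcRA, lhx1-AS, AcRA and C arrays and a difference of -0.55 (adjusted p = 0.446), so the probe sets of this gene disagree. atp6v1b1, a proton pump subunit gene of ionocytes, had 7.08, 37.2 and 1.74 in caps labelled lhx1-AS/AcRA and 232 to 4485 on the other 9, with a difference of -5.35 (standard error 1.21, adjusted p = 0.0472) that was lost in 9 of 12 fits without 1 array. fut6, a fucosyltransferase gene, had -4.40 (adjusted p = 0.00719).

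Transcription factor and junction genes of the epidermis were called lower with them. msx1, a homeobox gene downstream of BMP, had 88.5, 163 and 79.5 in caps labelled lhx1-AS/AcRA, against 1695, 881 and 1120 in lhx1-AS caps, and 1142, 825 and 761 in AcRA caps, against 1444, 1142 and 996 in C caps. Its difference was -3.11 (standard error 0.40, 95% interval -3.96 to -2.25, adjusted p = 0.00222) and was called in every fit without 1 array. The call was lost without the variance trend or without experiment III, and the dimmer msx1.S was not called (-1.31, adjusted p = 0.486). The Kruppel-like gene klf17 was alike, with 154, 534 and 60.8 in caps labelled lhx1-AS/AcRA and 502 to 2296 on the other 9 by its brightest probe set, where 1 array overlapped, and its difference was -4.28 (standard error 0.59, adjusted p = 0.00446). A second probe set of klf17.L gave -5.0 (adjusted p = 0.0176). Called at -3.53 to -2.75 were the grainyhead-like genes grhl3 and grhl1 (adjusted p = 0.00732 and 0.012), which drive epidermal barrier genes, and the distal-less genes dlx3 and dlx6 (adjusted p = 0.0133 and 0.0108). The desmosome gene dsp, the E-cadherin gene cdh1 and the splicing regulator gene esrp1 of epithelia had -1.63, -1.49 and -1.69 (adjusted p = 0.0393, 0.0477 and 0.00583).

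Keratin genes did not move as 1 group. krt70.L had 202, 499.8 and 50.4 in caps labelled lhx1-AS/AcRA and 2498 to 10194 on the other 9, with a difference of -4.93 (standard error 0.78, adjusted p = 0.00732), and krt12.4.L had -2.38 (adjusted p = 0.0176). krt12.4.S had 652, 472 and 329 in caps labelled lhx1-AS/AcRA and 7432 to 18529 on the other 9, with a difference of -4.33 (standard error 0.32, adjusted p = 7.07e-05). krt7.L, outside the list and picked after its values were seen, had -1.94 (adjusted p = 0.00222). The brightest probe set of krt70.S, the brightest member of the list that did not pass, had 7863, 11621 and 1025 in caps labelled lhx1-AS/AcRA and 14676 to 26691 on the other 9 (difference -2.19, adjusted p = 0.297). A dimmer krt70.S probe set passed (-3.95, adjusted p = 0.025). krt8.1 and krt18.1, the simple-epithelium pair, had 0.51 and 0.06 (adjusted p = 0.676 and 0.977), and krt19 had the called positive difference given above. The pan-epithelial adhesion gene epcam had -0.45 (adjusted p = 0.589).

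Among called probe sets with a mean signal of at least 100 in some group, several others with large negative differences were likewise lowest in caps labelled lhx1-AS/AcRA. vill, encoding a villin-like actin-binding protein, had 117, 164 and 33.8 in caps labelled lhx1-AS/AcRA and 2734 to 7472 on the other 9, with a difference of -4.92 (standard error 0.56, adjusted p = 0.00115), while the vill.L probe set had -0.95 (adjusted p = 0.66). mmp3, a matrix metalloproteinase gene, had 3.19, 55.8 and 112 in caps labelled lhx1-AS/AcRA and 823 to 5840 on the other 9 (difference -5.23, standard error 0.99, adjusted p = 0.0191). Its call was lost without C array II or III, AcRA array I or lhx1-AS array I. anxa9, an annexin gene, had 1.03, 1.35 and 21.7 in caps labelled lhx1-AS/AcRA and 107 to 1084 on the other 9 (difference -5.04, standard error 0.93, adjusted p = 0.0176), and the call was lost without C array I, AcRA array I or lhx1-AS array II. The genes annotated only as LOC100158288 and LOC398451 had differences of -5.09 and -4.64 (adjusted p = 0.00516 and 0.00517). Below that signal lay the most negative called differences with a gene symbol, which were of another kind, with positive responses in uninjected caps. The muscle myosin light chain gene myl1.L had 1.74, 8.16 and 4.37 in caps labelled lhx1-AS/AcRA, 27.5, 27.9 and 3.97 in lhx1-AS, 107, 149 and 20.0 in AcRA and 1.89, 3.85 and 1.80 in C caps (difference -6.73, adjusted p = 0.0253). The T-box gene tbx6r.L had -5.95 (adjusted p = 0.0413), with mean signals of 11.7 in caps labelled lhx1-AS/AcRA, 51.6 in lhx1-AS, 25.8 in AcRA and 2.56 in C caps.

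A smaller set had a positive response in uninjected caps that was smaller or absent in injected ones. rasd1, encoding a Ras-related small GTPase, had 93.0, 161 and 67.9 in caps labelled lhx1-AS/AcRA, against 107, 243 and 262 in lhx1-AS caps. It had 270.3, 516 and 367 in AcRA caps, against 32.8, 30.2 and 22.7 in C caps. The uninduced injected caps lay above the untreated uninjected ones, so the difference of -4.63 (standard error 0.55, 95% interval -5.83 to -3.44, adjusted p = 0.00164) drew on both pairs of groups, with an antisense effect of -1.89 in induced and 2.75 in uninduced caps. It passed under every alternative.

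hoxc6, a trunk Hox gene, was alike. It had 47.0, 168 and 89.8 in caps labelled lhx1-AS/AcRA, against 33.6, 89.3 and 74.8 in lhx1-AS caps, and 193, 317 and 471 in AcRA caps, against 2.84, 37.0 and 6.88 in C caps. The response was 0.55 in injected and 5.09 in uninjected caps (difference -4.54, standard error 0.79, adjusted p = 0.0119). The call was lost without AcRA array III, the block, the variance trend, experiment I or experiment III. By experiment the difference was -5.60, -2.19 and -5.83, smallest in experiment II, where the C signal was highest. A second, dimmer hoxc6.S probe set gave -0.35 (adjusted p = 0.944). Of 19 Hox genes on the list hoxc6 was the 1 called, 14 were below 0 and the median difference was -0.99, or -0.22 with 64 added to the signals. hoxa3, the brightest that did not pass, had 1.83 (adjusted p = 0.573) and responses of 7.25 in injected and 5.41 in uninjected caps. A probe set annotated as xhoxc8, a symbol the list did not hold, was also called (-3.76, adjusted p = 0.0425), with responses of 0.94 in injected and 4.70 in uninjected caps and mean signals of at most 114.

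ventx2.2, a homeobox gene that BMP activates on the ventral side, had 242, 371 and 164 in caps labelled lhx1-AS/AcRA, against 62.1, 193 and 181 in lhx1-AS caps. It had 489, 529 and 506 in AcRA caps, against 30.2, 70.1 and 57.6 in C caps. AcRA caps thus lay above all other groups, with a difference of -2.44 (standard error 0.54, adjusted p = 0.0413). With msx1 it made 2 called lower of 22 ventral and BMP target genes, against 0.871% of all probe sets, and the median difference was -0.29. Over every probe set of these genes 4 of 35 were called lower. The further ones were ventx2.1.L and szl.L. ventx2.1.L had -3.08 (adjusted p = 0.0043), with responses of -0.33 in injected and 2.75 in uninjected caps. szl.L, encoding the BMP-regulated Sizzled, had -3.52 (adjusted p = 0.00446) but another shape. Its responses were -10.37 in injected and -6.84 in uninjected caps, from 1592 to 2188 in lhx1-AS and 1989 to 2278 in C caps. Signals of 1.12 to 1.58 remained in caps labelled lhx1-AS/AcRA and 14.7 to 24.7 in AcRA caps, so the call rests on the lowest signals. The copies with the higher mean log2 signal, ventx2.1.S and szl.S, were not called (-1.37 and 0.82, adjusted p = 0.101 and 0.868). ski, a corepressor of Smad proteins, and tcf7, a Wnt transcription factor gene, had the same order of groups. ski had means of 527 ± 189 in caps labelled lhx1-AS/AcRA, 272 ± 19.3 in lhx1-AS, 1008 ± 310.0 in AcRA and 176 ± 19.2 in C caps (SD, n = 3 each). tcf7 had 672 ± 75.1 in caps labelled lhx1-AS/AcRA, 491 ± 84.6 in lhx1-AS, 1146 ± 74.0 in AcRA and 285 ± 84.8 in C caps. Their differences were -1.58 and -1.59 (adjusted p = 0.0336 and 0.0373). The calls of ventx2.2, ski and tcf7 were lost in 10, 8 and 10 of 12 fits without 1 array.

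Most kidney genes did not pass the test of the difference of responses. The paper's array selection rested on other comparisons, with cutoffs for AcRA against C caps and for lhx1-AS/AcRA against AcRA caps. Its diagram of that selection also marked as unaffected the probe sets that changed little in lhx1-AS against C caps. None of 24 early kidney regulators was called in either direction at an adjusted p under 0.05, against 1.54% of all probe sets. A list this small would hold few calls at that share, so the absence of calls does not set it apart. At an unadjusted p under 0.05 there were 3 higher and 4 lower, against 779 and 921 of all 15503 probe sets, and the median difference was -0.46. Of further genes that the study named, pax8, a kidney field factor gene, had signals of 8.89, 43.8 and 22.7 in caps labelled lhx1-AS/AcRA, 29.6, 45.2 and 30.8 in lhx1-AS caps, 42.6, 26.3 and 48.1 in AcRA caps and 2.01, 18.7 and 54.2 in C caps, so the groups overlapped at a level near the bottom of the array. Its difference of -2.32 had a 95% interval of -5.01 to 0.38 (adjusted p = 0.562). The paper read pax8 in explants by RT-PCR, at a later stage than the arrays, and reported that lhx1-AS inhibited its induction by AcRA. A probe set this dim does not bear on that result. pax2, hoxb7, wt1, fst and nrp1 had differences of -0.91, -1.99, -1.31, -0.43 and -0.28 (adjusted p = 0.787, 0.334, 0.737, 0.947 and 0.947), and lamb1 was matched to no probe set with a single symbol. For these genes, laminin-b1 included, the paper also used in situ hybridization of whole embryos at later stages. It reported reduced expression of each in most embryos injected with lhx1-AS. The differences in caps are another measure and do not bear on that result. Antisense effects in induced caps were -2.30 for fst, -1.45 for pax2 and -1.26 for hoxb7 (standard errors 0.90, 0.59 and 0.55). For pax8, wt1 and nrp1 they were -0.87, -0.27 and 0.31 (standard errors 0.88, 0.73 and 0.58). The paper's neuropilin 1 hit was a sequence resembling that gene that rose with AcRA. The nrp1.L probe set read here had an uninjected response of 0.05, so it is not the same reading. The intervals were wide, and that of pax8 includes differences of the size called elsewhere. Signals were low except for fst in AcRA caps, with 253, 333 and 389 there and 32.6, 65.3 and 129.7 in caps labelled lhx1-AS/AcRA. With 64 added to the signals fst passed, with a negative difference. Among 8 differentiated kidney genes atp1b1 was called, as given above.

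Several strong AcRA responses did not differ detectably. vegt, a T-box gene of mesoderm and endoderm, had responses of 6.32 in injected and 6.16 in uninjected caps (difference 0.16, 95% interval -1.95 to 2.28, adjusted p = 0.979). Its level was not equal, with antisense effects of 2.64 in induced and 2.48 in uninduced caps (standard error 0.69 each). It had 6117, 7300 and 8130 in caps labelled lhx1-AS/AcRA, against 448, 2743 and 1214 in AcRA caps. Signals were low in untreated caps, with 71.0, 65.8 and 152 in lhx1-AS and 2.19, 31.1 and 60.2 in C caps. dhrs3, a retinoid-metabolizing enzyme gene, had responses of 5.26 in injected and 4.46 in uninjected caps (difference 0.80, 95% interval 0.19 to 1.41, adjusted p = 0.257). None of 25 early mesoderm, 18 retinoic acid pathway, 28 paraxial mesoderm and muscle, 19 lateral plate, blood and heart, 15 neural crest and placode, 10 T-box, 18 forkhead, 26 pluripotency and maternal, 21 p53 and stress or 21 housekeeping genes was called by its brightest probe set, with medians of -0.64 to 0.55. Lists this small would hold few calls at the 1.54% called of all probe sets, so the absence of calls does not set them apart. At an unadjusted p under 0.05 each of these lists had 0 to 3 members higher and 1 to 7 lower, against 779 and 921 of all 15503 probe sets. The largest counts lower were 7 of 28 paraxial mesoderm and muscle, 4 of 25 early mesoderm and 3 of 15 neural crest and placode genes. In each of these 3 lists 2 were higher. Over every probe set 1 of 52 of the paraxial mesoderm and muscle list was called lower, the myl1.L probe set above, and the brightest one of myl1.L had -5.48 (adjusted p = 0.106). The T-box gene tbx6r, called lower above, was a symbol that the T-box list did not hold. Among housekeeping genes eef1a1, a translation factor gene, had -0.19 (standard error 0.19).

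Motile cilia genes had negative median responses in both kinds of caps, -1.69 in injected and -2.19 in uninjected ones. tekt2, encoding a filament protein of ciliary microtubules, was the 1 called of 21 cilia genes, at -3.24 (standard error 0.68, adjusted p = 0.031), where the arrays labelled lhx1-AS/AcRA had 8.63, 1.16 and 2.82, lhx1-AS caps 138 to 1007, AcRA caps 44.4 to 134 and C caps 661 to 1744. With 64 added to the signals its difference was 0.20, so its direction rests on the lowest signals. ag1, a secreted cement gland protein gene, had -1.79 by its ag1.L probe set (standard error 0.41, adjusted p = 0.0478), called in 1 of 12 fits without 1 array. The ag1.S probe sets had 0.32 and 3.56 (adjusted p = 0.913 and 0.536), so the probe sets of this gene disagree. The first of these was brighter in C caps than that of ag1.L, with means of 5527 and 2680. The cement gland gene agr2 had -0.66 (adjusted p = 0.675).

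**Figure D4:**
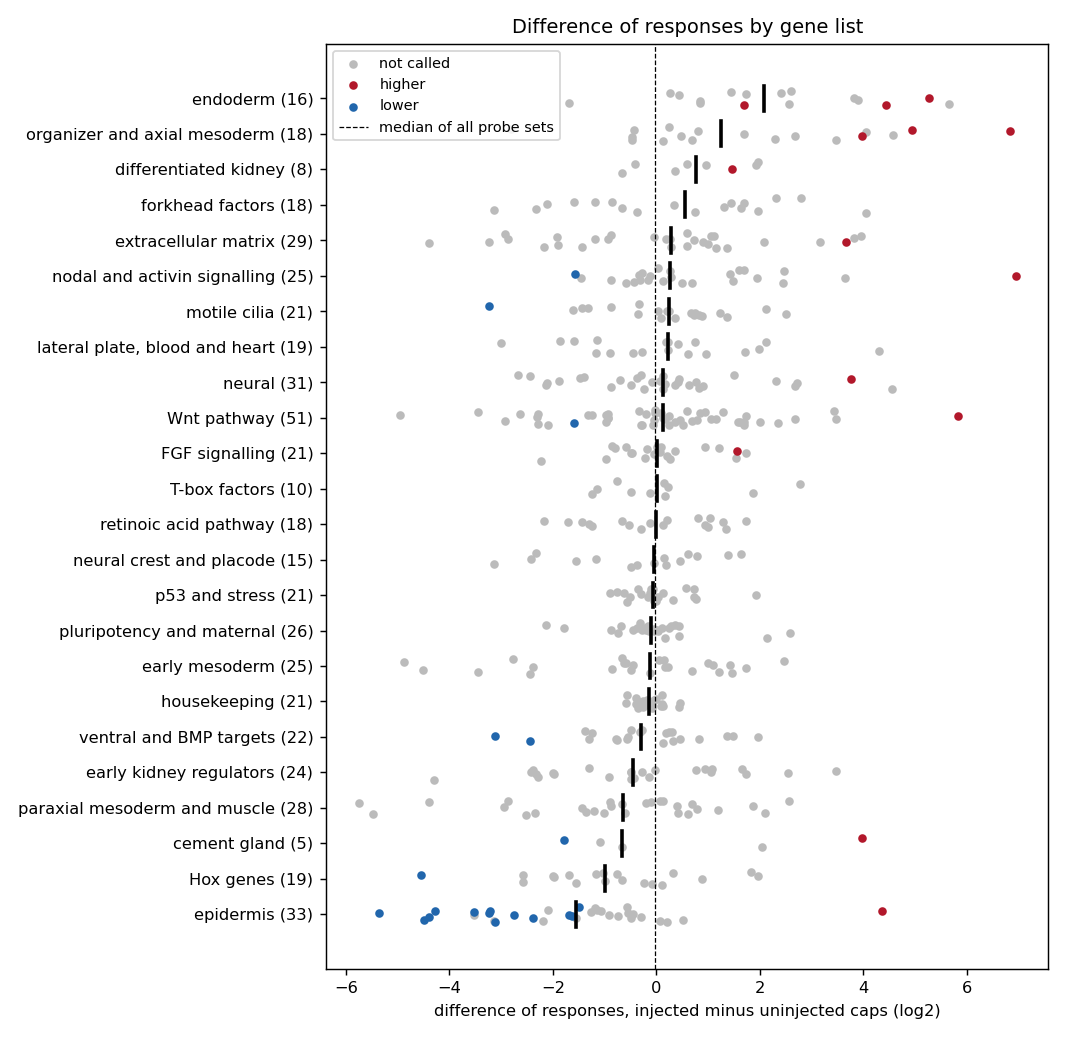
Difference of responses (horizontal axis, log2) of each measured gene of 24 lists, with the number of genes in parentheses, the list's median as a black bar and called genes in red or blue. A gene can be in several lists. The epidermis list lies to the left with 13 blue points, and the endoderm and organizer lists lie to the right with 3 red points each.

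The experiments gave the same direction for the called probe sets, all 239 of which had 1 sign in experiments I, II and III, against 34.3% of all probe sets. A probe set with unlike signs can hardly pass the test, so this describes the calls and does not support them. Across all 15503 probe sets, which are not independent replicates, the differences of 2 experiments had Pearson correlations of 0.135 (I and II), 0.181 (I and III) and 0.138 (II and III). Single values varied widely where signals were low. By experiment, gsc had 3.95, 3.19 and 13.37, while LOC100158288 had -4.95, -5.13 and -5.18.

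**Figure D5:**
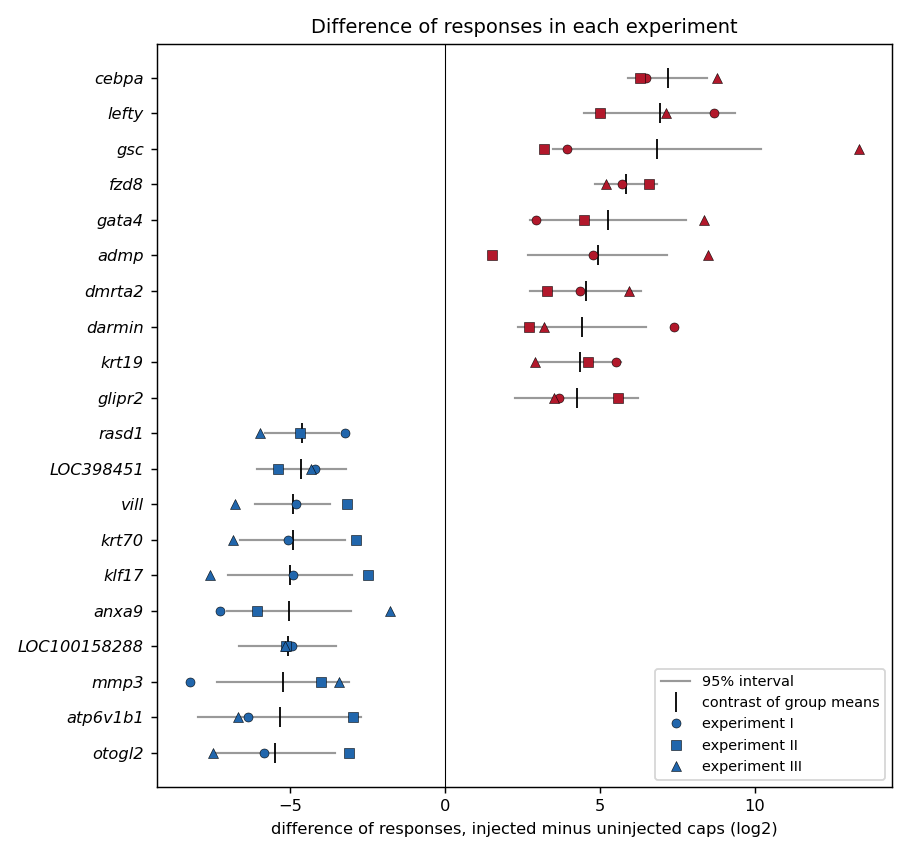
Difference of responses in each experiment (markers) for the 10 genes with the largest positive and the 10 with the largest negative called differences among probe sets with 1 gene symbol and a mean signal of at least 100 in some group, with the contrast of group means (tick) and its 95% interval (line), in log2. All 60 markers lie on the side of 0 of their gene, and those of gsc, admp and anxa9 are the most spread.

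Xenopus laevis carries many genes as L and S copies on its subgenomes, and the copy that was not called gives a further reading, although probe sets can cross-hybridize between copies. For 44 called genes the other copy was measured, and 34 of these had the same sign. Among the 36 whose other copy reached a mean signal of 100 in some group, 31 did. By the 1 probe set read for it, the other copy was itself called in 6, namely cebpa, dlx3, krt12.4, krt19, rcan1 and znf750, always the same way. For krt70 a dimmer probe set of the other copy was called too, as given above. Its differences were smaller, with a median of 0.89 where the called copy had 2.97 (20 higher genes) and -0.99 where it had -2.87 (24 lower genes). The called copy was chosen for its call, so part of that gap is built in. The share of like signs over all pairs of copies was not computed, so these counts describe the called genes and do not support the calls.

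The share of the AcRA response kept in injected caps depended on which caps the responding probe sets were chosen on. Those at least 4-fold higher in AcRA than in C caps in 1 experiment had median responses in the other experiments that averaged 1.06 in injected and 1.48 in uninjected caps, or 71.4%, and those at least 4-fold lower averaged -0.83 and -1.14, or 72.6%. Chosen instead on the response of injected caps, the risers averaged 1.27 in injected and 0.82 in uninjected caps (155%), and the fallers -1.13 and -0.78 (144%). Either choice thus favoured the caps it was made on, so these shares cannot tell whether the response was weaker in general. The choice on injected caps was added after seeing the data.

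The direction of some lower differences depends on the log scale. All 104 higher probe sets had the same sign on linear signals, but 26 of the 135 lower ones had the opposite sign, all of them with falls in both kinds of caps. For itln1 the mean signal was lower by a smaller amount in injected caps, where lhx1-AS caps started from a lower level, so its linear difference was 1382. The linear difference was also positive for atp6v1b1, anxa9, LOC398451, tekt2, dsp, fut6 and szl.L, and negative for otogl2, krt70, msx1, vill and klf17.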

How the data were processed

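RNA of 12 samples of pooled caps was measured on Affymetrix Xenopus laevis arrays. The deposited values are intensities that the authors computed with GCOS (version not given in the sources used here) on a linear scale, brought to a trimmed mean of 500.1 per array, with no detection calls. Of 15611 probe sets, 108 controls were left out. The 555 signals below 1 (0.298%) were set to 1 before log2 was taken. The platform's annotation named a single gene for 9304 probe sets, more than 1 for 195 and no gene for 6112.

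The difference of responses was tested with limma 3.58.1 in R 4.3.3, as a contrast of 4 group means with the experiment as a block and a variance trend. P-values were adjusted by the Benjamini-Hochberg method over 15503 probe sets, with calls at 0.05. To see whether experiment numbers pair the arrays, each array's departures from its group mean were correlated. Arrays that shared an experiment gave 0.152 to 0.269 (18 pairs), and all others -0.19 to -0.00368 (36 pairs), so the numbers pair the arrays. Nothing in the sources states that experiments used separate clutches, so p-values measure spread between these experiments only. That spread is how group differences varied once the block had removed level differences, with variances moderated toward the trend. Precision is limited by how few arrays there are.

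List members were read from the probe set with the brightest mean log2 signal. The named genes were lhx1, the 10 most positive and the 10 most negative called probe sets of 1 sign in all experiments with 1 gene symbol and a mean signal of at least 100 in some group, up to 3 called members and the brightest uncalled member of each list, and genes that the paper names. The comparison, the lists and this rule were chosen with earlier results of these data known. Other list members, and dhcr7, dynll1, pfkfb1, slc25a1, rcan1, znf750, krt7, myl1, tbx6r, xhoxc8, szl and ventx2.1, were picked after their values were seen. Simulated data were used to test the fit. Alternatives were a fit with no block, quantile normalization, a common median, 16 or 64 added to signals, a filter that removed the dimmest 40%, no variance trend, limma on within-experiment differences, all probe sets of each gene, and fits lacking an array or an experiment. A promoter motif search was not run.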

Additional observations from a re-analysis of the deposited data

Results flagged for a closer look

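The test of the difference itself marked 104 probe sets with a higher and 135 with a lower response in injected caps, and these named genes among them (log2 difference of responses). The higher ones were cebpa (7.19), lefty (6.94), gsc (6.84), fzd8 (5.83), gata4 (5.27), admp (4.93), dmrta2 (4.54), darmin (4.43), krt19 (4.35), glipr2 (4.26), otx2 (3.98), zic2 (3.76), fn1 (3.67), gata6 (1.70), fgfr2 (1.56) and atp1b1 (1.47). The lower ones were otogl2 (-5.48), atp6v1b1 (-5.35), mmp3 (-5.23), LOC100158288 (-5.09), anxa9 (-5.04), klf17 (-5.0, and -4.28 by its brightest probe set), krt70 (-4.93), vill (-4.92), LOC398451 (-4.64), rasd1 (-4.63), hoxc6 (-4.54), itln1 (-4.49), tekt2 (-3.24), msx1 (-3.11), ventx2.2 (-2.44), ag1 (-1.79), tcf7 (-1.59) and ski (-1.58). Of these 35, cebpa, fzd8, rasd1 and fn1 passed under every alternative run.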

How the results depend on the processing

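The counts of 104 higher and 135 lower probe sets became 26 and 42 without the experiment block that pairs the arrays, 6 and 5 without the variance trend, 188 and 209 with 16 added, and 224 and 207 with 64 added. They stayed within 1.5 times under quantile normalization, a common median, the filter on dim probe sets and within-experiment differences. Leaving out an experiment gave 22 and 17 (I), 50 and 104 (II) and 22 and 32 (III), from fewer arrays. Leaving out 1 array gave 52 to 109 higher and 72 to 215 lower. The higher count fell to 52 without lhx1-AS/AcRA I, 59 without AcRA I, 63 without lhx1-AS III, 66 without AcRA III and 69 without C I. The lower count was 72 without lhx1-AS III, 73 without AcRA I or AcRA III, 75 without C I, 86 without lhx1-AS/AcRA I, 89 without C II and 215 without lhx1-AS/AcRA II. Of the 239 called probe sets 68 were still called without the block and 9 without the trend, and 1, tekt2, changed sign, to 0.20 with 64 added (adjusted p = 0.934). The injected share of the AcRA response, 71.4% for probe sets higher and 72.6% for those lower with AcRA, was 155% and 144% when the probe sets were chosen on injected caps, an alternative added after seeing the data. Apart from that choice, the causes of these changes were not tested. Mean signals under 100 in some groups limit the sizes, since 53 called probe sets lay there in lhx1-AS/AcRA, 38 in lhx1-AS, 29 in AcRA and 27 in C caps.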
